A study of Homo sapiens with 2 samples.

Results

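TNFAIP2 and NFKBIE are 2 genes whose transcription is known to be switched on by NF-kB. They were measured here in human cells labelled HAL-01, a line that the labels describe as pre-B acute lymphoblastic leukaemia. The culture labelled AG was kept for 24 h with 1,5-AG, the polyol 1,5-anhydroglucitol, at 0.8 mM. The other is labelled Control, and the sources used here do not give its own treatment. RNA-seq with a stranded mRNA kit gave 1 library per culture. The rule mapped Ensembl gene IDs to TNFAIP2 and NFKBIE, and also took in 12 further genes of the pathway where a file lists them. Of these 14 genes 8 had a value, in both libraries alike, among 16145 gene IDs in all. TNFAIP2 and NFKBIE were chosen by their ratio of AG to Control in these same libraries, so that ratio is a description and no support is drawn from it. With 1 library per group no test between conditions was possible, and no p-value is given.

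NF-kB proteins are dimers of Rel family subunits that are held in the cytoplasm by inhibitors called IkB. Signals from receptors such as the TNF receptors and the Toll-like receptors activate the IKK kinase complex, which marks IkB for destruction, and the freed dimers enter the nucleus. Several IkB genes are themselves targets of NF-kB, so that the response shuts itself off. NFKBIE encodes IkB epsilon, one of these induced inhibitors. TNFAIP2, also called M-Sec, was found as a gene induced by TNF. Its protein resembles a subunit of the exocyst, a complex that tethers vesicles to the plasma membrane, and is known for its part in forming thin membrane nanotubes between cells of the macrophage lineage.

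Start regions are shown for TNFAIP2 and for NFKBIA, the gene of IkB alpha and the textbook case of NF-kB feedback, so that the letters upstream of both genes can be compared. Each run covers the 220 bases from 250 to 31 bases before the RefSeq start on GRCh38.p14, read 5′ to 3′ on the strand of the gene. Capitals mark a match to the consensus kB motif on either strand. TNFAIP2 lies at chr14:103123211-103123430 on the plus strand and NFKBIA at chr14:35404780-35404999 on the minus strand.

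TNFAIP2: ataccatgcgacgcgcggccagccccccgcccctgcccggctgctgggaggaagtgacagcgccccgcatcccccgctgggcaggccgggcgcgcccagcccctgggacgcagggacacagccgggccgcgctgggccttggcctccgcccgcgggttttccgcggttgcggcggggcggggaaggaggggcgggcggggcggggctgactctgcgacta

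NFKBIA: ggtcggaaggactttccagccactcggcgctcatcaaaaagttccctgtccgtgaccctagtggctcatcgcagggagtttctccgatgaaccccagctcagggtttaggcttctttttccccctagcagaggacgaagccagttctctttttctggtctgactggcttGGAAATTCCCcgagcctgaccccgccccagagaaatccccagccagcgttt

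The TNFAIP2 window held no match to the consensus kB motif, and the NFKBIA window held 1, read on the opposite strand, from 81 to 72 bases before the start. Over 35116 RefSeq start regions of the same length, 4.66% held at least 1 match on either strand. Of the 8 genes with values, 5 had start regions in the RefSeq table used. NFKBIE, RELB and IKBKB had none there, so the motif was not looked for in them. Both windows of NFKB1 and 1 window each of RELA and TNIP1 overlapped annotated exons and are not shown. A match was present in 1 of the 2 windows of NFKB1, as GGGAATTTCC from 49 to 40 bases before the start, and in 1 of the 2 windows of TNIP1, as GGGACTTTCC from 42 to 33 bases before it. Neither of the 2 windows of RELA held one. The TNFAIP2 window was 78.6% G and C and held 6 matches to the GC box GGGCGG, counted on both strands with overlaps, where 38.9% of all windows held at least 1. A match is not evidence of binding, and the lack of one says only that these letters are not in this window.

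The authors deposited FPKM, in which fragments are divided by gene length and library total. The totals recovered from the steps between low values were 14857372 fragments for AG and 16240451 for Control. Intervals are 95% counting intervals from the recovered whole fragments, exact Clopper-Pearson for a ratio and exact Poisson for a level. Several fragments can come from 1 molecule, and these intervals hold counting error alone, without the spread between cultures. A gene was expressed if both libraries listed it with a mean of at least 1 FPKM, which 5528 genes were. It was counted as higher or lower from 1.5-fold on the log2(FPKM + 1) scale, a log2 ratio of 0.585, and that scale understates the change of low genes. By this rule 3.6% of expressed genes were higher in AG and 3.33% were lower, with a median log2 ratio over all of them of -0.03.

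Where they had values, the markers of the labelled cell type were low in both libraries, and myeloid markers were abundant. Of 13 B cell precursor markers 4 had a value in both libraries, summing to 2.84 FPKM in AG and 2.54 in Control. Of 16 granulocyte and monocyte markers 7 had a value in both, summing to 497 FPKM in AG and 952 in Control, with 2 of them higher and 2 lower. ITGAM and S100A9 were the higher pair, and CTSG, at 194 FPKM in AG and 743 in Control, and MPO were the lower pair. Of 8 T and NK cell markers 2 had values in both, led by NKG7 at 10.3 FPKM in AG and 17.2 in Control. Of 8 erythroid, stromal and endothelial markers 1 did, COL1A1 at 0.0897 and 0.0205. No gene was listed at 0 in either file, and a gene without a value is not read as unexpressed. By annotated exon length, the genes with values held 43.8% of the recovered fragments in AG and 43.2% in Control. The marker sums therefore cover only a part of each library. TNFAIP2 is known for its part in cells of the macrophage lineage, so these values stand beside the results below. Their part in those results was not tested. In bulk RNA, a change in the make-up of the culture and a change per cell cannot be told apart.

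TNFAIP2 had 39.8 FPKM in AG and 23.1 FPKM in Control. It rested on 2990 fragments in AG and 1900 in Control, and its ratio was 1.72 (1.62 to 1.82). On the log2(FPKM + 1) scale the difference was 0.76, the 126th highest of 5528 expressed genes. The gene was abundant in both libraries, above 96.5% of all genes that AG lists and 93.6% of those that Control lists. The counting interval of its level was 38.4 to 41.2 FPKM in AG and 22.1 to 24.2 in Control. TNFAIP2 (ENSG00000185215) lies on chromosome 14 at 103123442 to 103137439, plus strand, in GRCh38 coordinates of GENCODE 29. Its values came out whole at a length of 5058 bases, against 5029 bases of annotated exons.

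NFKBIE had 19.9 FPKM in AG and 12.1 FPKM in Control. It rested on 763 fragments in AG and 508 in Control, and its ratio was 1.64 (1.47 to 1.84). The log2 difference was 0.67, the 161st highest of the 5528. The level was above 92.3% of the genes listed in AG and 87.2% of those listed in Control. The interval of its level was 18.5 to 21.4 FPKM in AG and 11.1 to 13.2 in Control. The pseudocount decides its side of the threshold, since with 5 FPKM in place of 1 the log2 difference was 0.54, under 1.5-fold. NFKBIE (ENSG00000146232) lies on chromosome 6 at 44258166 to 44265788, minus strand. The exon length at which both of its values come out whole, 2581 bases, equals that of GENCODE 29.

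The other 6 genes with values were all within 1.5-fold, and their log2 ratios ran from -0.12 to 0.17. Among the DNA-binding subunits, RELA, the p65 subunit that carries the activation domain, had 13.4 FPKM in AG and 14.0 in Control. NFKB1, which encodes p105 and p50, had 9.10 FPKM in AG and 8.68 in Control. RELB, the subunit of the non-canonical branch, was lowest at 3.55 FPKM in AG and 3.14 in Control. The intervals of all 3 ratios included 1, and RELA lies in the annotation across another listed gene, so some of its reads may belong to that neighbour. NFKBIA had 14.8 FPKM in AG and 13.0 in Control, a ratio of 1.14 (1.01 to 1.29). IKBKB, the IKK beta kinase, had 13.4 FPKM in AG and 14.0 in Control. TNIP1, which helps the deubiquitinase A20 restrain the pathway, had 16.3 FPKM in AG and 17.8 in Control, a ratio of 0.916 (0.853 to 0.984). NFKB2, REL, NFKBIB, NFKBIZ, IKBKG and TNFAIP3 were not analysed here.

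**Figure D1:**
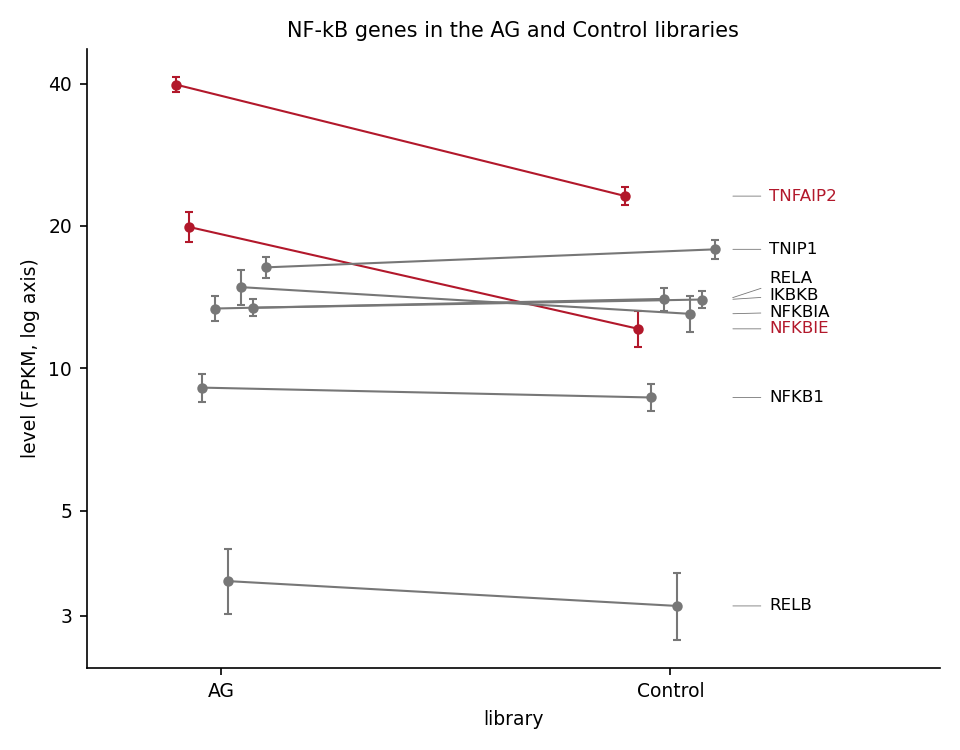
Level of the 8 NF-kB genes with values (FPKM, log axis) in the AG library and in the Control library. Points are single libraries, bars are 95% counting intervals and lines join 1 gene. TNFAIP2 at 39.8 and 23.1 FPKM and NFKBIE at 19.9 and 12.1, in red, have the steepest lines, while the other 6 are within 1.5-fold.

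FPKM divides by gene length, so levels can be ordered within a library. In AG the order from the top was TNFAIP2, NFKBIE, TNIP1, NFKBIA, IKBKB, RELA, NFKB1 and RELB. In Control it was TNFAIP2, TNIP1, RELA, IKBKB, NFKBIA, NFKBIE, NFKB1 and RELB. NFKBIE thus stood in place 2 in AG and in place 6 in Control. Its change of place follows from the ratio by which it was chosen, and nothing is read from that change. In AG the counting interval of each of TNFAIP2 and NFKBIE lay apart from that of the next lower gene, and the neighbours from TNIP1 down to RELA overlapped. In Control the interval of TNFAIP2 lay apart from that of TNIP1, and those of RELA, IKBKB, NFKBIA and NFKBIE overlapped from 1 to the next.

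Ratios of levels within a library do not depend on the library total. NFKBIE over NFKBIA was 1.34 (1.2 to 1.5) in AG and 0.93 (0.82 to 1.05) in Control. NFKBIE over RELA was 1.49 (1.35 to 1.63) in AG and 0.864 (0.778 to 0.959) in Control. NFKBIA over RELA was 1.11 (0.998 to 1.23) in AG and 0.93 (0.837 to 1.03) in Control. The share of NFKBIE in the summed FPKM of NFKBIA and NFKBIE was 57.3% in AG and 48.2% in Control. That sum was 34.7 FPKM in AG and 25.2 in Control, set against 26.03 and 25.84 FPKM for RELA, RELB and NFKB1 together, or 1.33 and 0.974 as ratios. These sums leave out NFKBID and the family members without values.

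TNFAIP2 over NFKBIA was 2.68 (2.44 to 2.95) in AG and 1.77 (1.61 to 1.96) in Control, and TNFAIP2 over TNIP1 was 2.43 (2.28 to 2.59) and 1.3 (1.21 to 1.38). TNFAIP2 over NFKBIE was 2 (1.85 to 2.17) in AG and 1.91 (1.73 to 2.11) in Control. How any ratio with TNFAIP2 or NFKBIE differs between the libraries follows from the values by which these genes were chosen, and nothing is read from it.

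**Figure D2:**
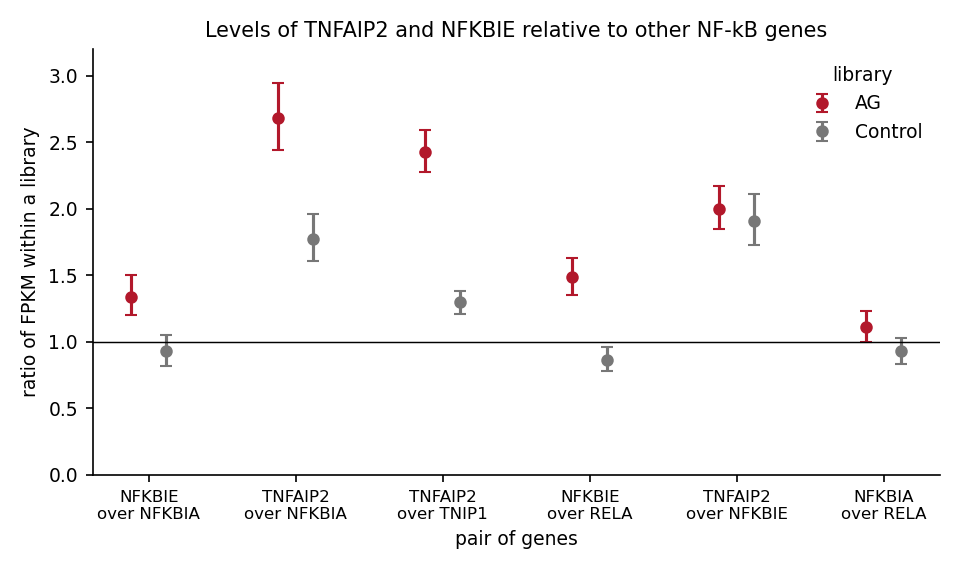
Ratio of the FPKM of 2 genes within a library, for 6 pairs, with AG left of Control in each pair. Points are single libraries and bars are 95% counting intervals. TNFAIP2 over NFKBIE is 2 in AG and 1.91 in Control, whereas NFKBIE over NFKBIA is 1.34 in AG and 0.93 in Control.

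Genes of the signalling steps were looked at by role, over lists of 78 genes other than TNFAIP2 and NFKBIE. Of these 37 had a value in both libraries and 27 were expressed. All 27 were within 1.5-fold, 0 higher and 0 lower, against 3.6% and 3.33% of all expressed genes. Their median log2 ratio was 0.07 and they ran from -0.19 to 0.56. The gene just outside the threshold was MAP3K14, the NIK kinase that drives the non-canonical branch, at 1.65 FPKM in AG and 0.793 in Control. It rested on 139 fragments in AG and 73 in Control, a ratio of 2.08 (1.56 to 2.80), and the pseudocount of 1 FPKM kept its log2 ratio at 0.56. With a pseudocount of 0.1 FPKM it would be counted as higher.

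Of 11 genes of kinases and their partner proteins 6 were expressed and 5 of them were above 0, with a median log2 ratio of 0.13. The counting interval of the ratio lay above 1 for 3 of them, MAP3K14, CHUK and TAB2. Without genes that overlap another listed gene the median of this list was 0.08. Some of its genes thus lie across a listed neighbour, and some of their reads may belong to that neighbour. CHUK, the IKK alpha kinase, had 11.1 FPKM in AG and 9.67 in Control, and TAB2, an adaptor of the TAK1 kinase, had 19.8 and 16.9. TBK1, an IKK-related kinase, had 3.56 FPKM in AG and 3.29 in Control. IKBKE, the other IKK-related kinase, was listed in AG alone, at 14.3 FPKM, and without a Control value it was not compared. Among the IkB proteins NFKBID, a nuclear member, had 3.68 FPKM in AG and 3.75 in Control, and BCL3 was listed in Control alone, at 0.517 FPKM.

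Negative regulators acting through ubiquitin showed no shared direction. Of 13 such genes 6 were expressed, 2 above 0 and 4 below, with a median log2 ratio of -0.09. RNF11, a ligase adaptor of the A20 complex, had 33.0 FPKM in AG and 28.0 in Control. TAX1BP1, another partner of A20, had 18.8 FPKM in AG and 21.5 in Control, a ratio of 0.874 (0.830 to 0.921). OTULIN, which removes linear ubiquitin chains, had 16.9 FPKM in AG and 16.1 in Control, and TNIP2 had 17.5 and 18.3.

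The expressed adaptors and receptors were within 1.5-fold, although many of their counting intervals excluded 1. Of 23 adaptor genes 7 were expressed, with a median log2 ratio of 0.00, and the interval of the ratio lay above 1 for 3 of them. IRAK1, a kinase of Toll-like receptor signalling, was the most abundant at 113 FPKM in AG and 90.2 in Control, a ratio of 1.25 (1.21 to 1.298). IRAK3, which restrains the same step, had 36.0 FPKM in AG and 35.9 in Control, and CARD9 had 30.7 and 28.1. Of 21 receptor genes 3 were expressed, and the interval lay above 1 for 2 and below 1 for 1. TLR4, the receptor of lipopolysaccharide, had 5.54 FPKM in AG and 4.04 in Control, a ratio of 1.37 (1.25 to 1.499). TLR2, a receptor of bacterial lipoproteins, had 17.8 FPKM in AG and 20.5 in Control, a ratio of 0.869 (0.812 to 0.929). The TNF receptor TNFRSF1B had 13.1 FPKM in AG and 11.4 in Control, a ratio of 1.15 (1.03 to 1.27).

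**Figure D3:**
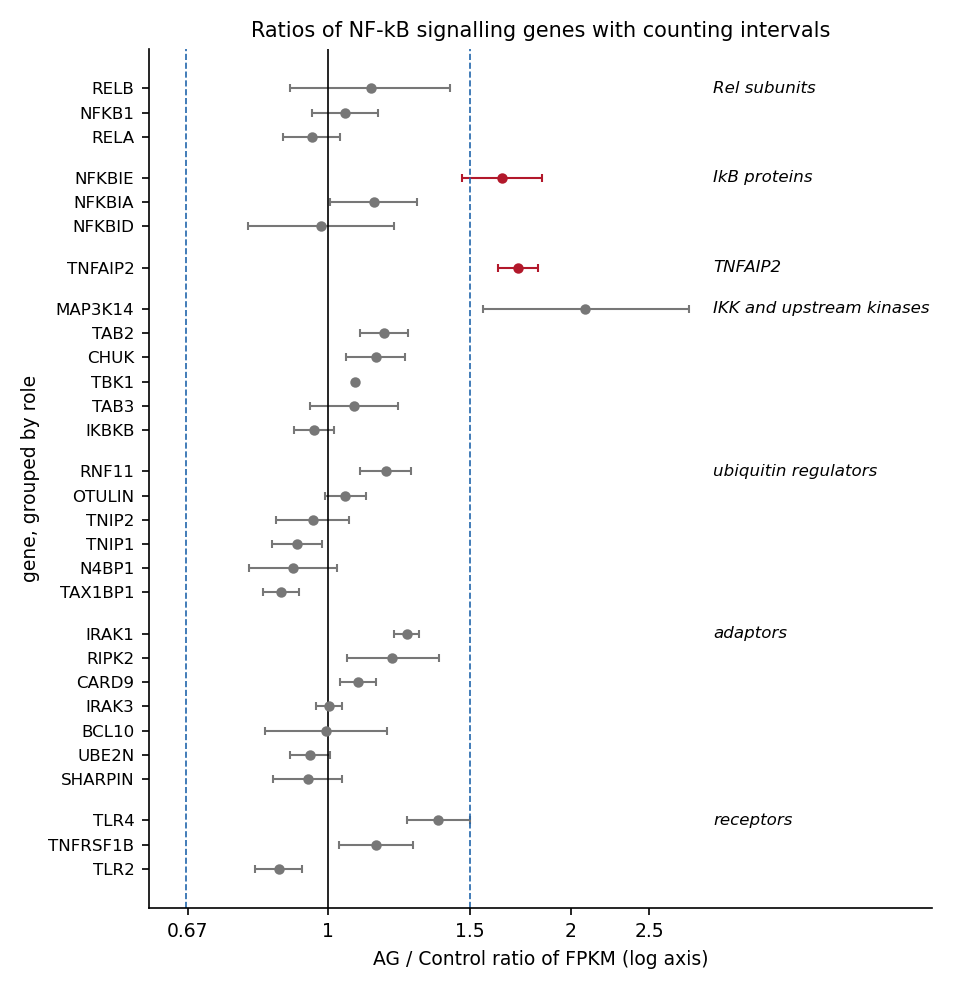
Ratio of AG to Control FPKM (log axis) for TNFAIP2, NFKBIE and the 27 other expressed signalling genes, grouped by role. Bars are 95% counting intervals, which TBK1 lacks because its whole fragments were not recovered. Dashed lines mark a plain ratio of 1.5 up and down, and MAP3K14, at 2.08, lies past it although it is under 1.5-fold with the pseudocount.

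Of 48 genes widely described as NF-kB targets, other than TNFAIP2 and NFKBIE, 14 had values in both libraries and 10 were expressed. The expressed ones include NFKBIA, NFKB1, RELB and TNIP1, which were also counted among the signalling genes above, so the 2 sets are not separate. Of these 10 genes 1 was higher and 1 was lower, beside 3.6% and 3.33% of all expressed genes, and the median log2 ratio was 0.07. The higher gene was SAT1, which breaks down polyamines, at 11.9 FPKM in AG and 6.25 in Control, a ratio of 1.90 (1.63 to 2.23). SQSTM1, an autophagy receptor, was the lower one at 0.974 FPKM in AG and 2.32 in Control, a ratio of 0.420 (0.333 to 0.525). CD44, an adhesion receptor, had the highest log2 ratio of the expressed targets under the threshold, 0.23, at 6.10 FPKM in AG and 5.07 in Control. GADD45B, a stress sensor, had 8.41 FPKM in AG and 9.50 in Control, and IRF1 had 2.18 and 2.01.

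Cytokine genes that NF-kB drives were low where they had values. Of 17 such genes 4 had a value in both libraries and 0 were expressed, with sums of 2.17 FPKM in AG and 1.55 in Control. IL1B, the cytokine interleukin 1 beta, had 0.582 FPKM in AG and 0.102 in Control, on 26 and 5 fragments, a ratio of 5.68 (2.15 to 18.9). LTB, lymphotoxin beta, had 0.833 FPKM in AG and 0.722 in Control, and CXCL2 had 0.674 and 0.617, both on fewer than 20 fragments a library. IL1A was listed in AG alone, at 0.134 FPKM, and CXCL1 in Control alone, at 0.181. TNF, IL6 and CXCL8 were not analysed here.

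**Figure D4:**
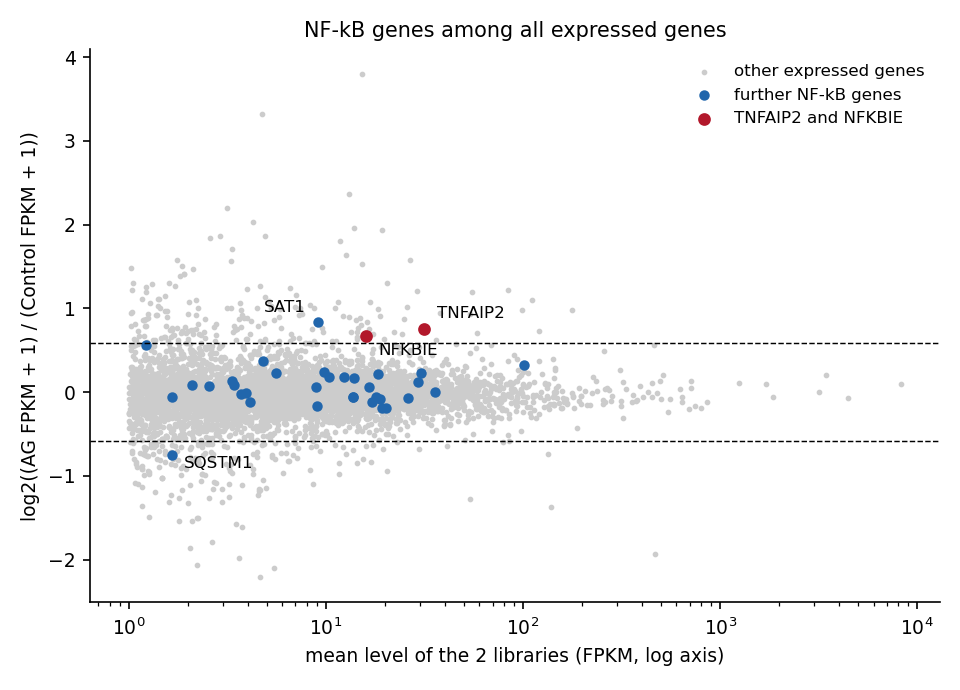
Log2 ratio of AG to Control, with 1 FPKM added, against the mean level of the libraries (FPKM, log axis) for the expressed genes. Dashed lines mark 1.5-fold. TNFAIP2 at 0.76 and NFKBIE at 0.67, in red, lie above the upper line. Of the further NF-kB genes, in blue, SAT1 at 0.83 lies above that line and SQSTM1 at -0.75 lies below the lower one. The other blue points lie between the lines.

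Subunits of the exocyst, the complex with a subunit that TNFAIP2 resembles, were within 1.5-fold where expressed. Besides TNFAIP2 itself, 3 genes of that list were expressed, and the intervals of their ratios included 1. EXOC1 had 7.36 FPKM in AG and 7.79 in Control, EXOC5 had 11.3 and 11.2, and EXOC8 had 12.7 and 12.4. The nearest relatives EXOC3L1 and EXOC3L4 were under 0.3 FPKM in both libraries.

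EXOC3L4 is also the nearest gene with values on the low-coordinate side of TNFAIP2, 12882 bases away on chromosome 14. It rested on 5 fragments in AG and 9 in Control. On the other side the nearest was the antisense RNA AL138976.2, 194234 bases away, at 0.194 FPKM in AG and 0.355 in Control. Beside NFKBIE the nearest were SLC35B2, a sugar nucleotide transporter 275 bases away on the same strand, and CDC5L, a splicing factor 121736 bases away. SLC35B2 had 30.0 FPKM in AG and 35.5 in Control, a ratio of 0.845 (0.779 to 0.917). CDC5L had 23.3 FPKM in AG and 26.2 in Control, so both neighbours stood lower in AG while NFKBIE stood higher. No annotated gene overlapped TNFAIP2 or NFKBIE.

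The genes whose pair of values lay closest were found among 6417 protein-coding genes by distance in log2(FPKM + 1) over the 2 libraries. With 2 points per gene, likeness means a similar level in each library. For TNFAIP2 they were FADS2, a fatty acid desaturase, at 35.3 FPKM in AG and 24.0 in Control, IDI1, an isomerase of sterol synthesis, at 34.5 and 25.8, and NUS1, a subunit of the dolichol-making enzyme, at 35.1 and 27.1. Their distances were 0.176, 0.252 and 0.28, and each had a lower ratio than TNFAIP2. For NFKBIE they were C1orf54 at 20.9 FPKM in AG and 12.0 in Control, CREB3L2, a membrane-bound transcription factor, at 21.6 and 12.9, and CD244, a receptor of the SLAM family, at 19.4 and 10.7. Their distances were 0.0706, 0.142 and 0.171.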

How the data were processed

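The authors deposited 1 FPKM table per library. Per the submitters' processing notes, Trimmomatic, HISAT2, Cufflinks, HTSeq and hg38 were used. What each did, which annotation was counted, whether strand was used and what was filtered is not stated in the sources used here. FPKM divides by the library total, so abundant genes move the rest.

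IDs were matched to GENCODE 29 (97.1% of 16145). Totals came from the FPKM that 1 fragment gives in single-transcript genes, of which 88.1% in AG and 88.4% in Control came out whole within 0.01. Fragments of a gene were the whole numbers at the length nearest its annotated exon length. Genes listed in 1 library only were not compared, and some list members are not reported here. The steps were tested on simulated data.

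Members and lists were chosen with earlier results of these data known. All genes of the rule with values were named. Open to naming were list members past 1.5-fold or among the 3 highest in their list, the Rel, IkB, kinase, ubiquitin and exocyst lists, the nearest neighbours, and the 3 most alike genes. Other genes named, such as TNF, CD44 and IRF1, and the motifs were chosen after values were seen. Alternatives were pseudocounts of 0.1 and 5 FPKM, filters on low values, 2 scalings, a 2-fold threshold and leaving out overlapping genes. Tables were handled in pandas 2.3.3 (Python 3.11.15), intervals computed with scipy 1.17.1 over numpy 2.4.6, and plots drawn with matplotlib 3.10.9.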

Additional observations from a re-analysis of the deposited data

How the results depend on the processing

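The log2 ratio of TNFAIP2 ran from 0.67 to 0.78 over 5 alternatives and stayed past 1.5-fold in each, with the lowest value, 0.671, at a pseudocount of 5 FPKM. That of NFKBIE ran from 0.54 to 0.71 and was under 1.5-fold at that pseudocount, which lowers it by construction. The 6 further genes of the rule kept their direction. Genes at least 1.5-fold higher and lower in AG numbered 199 and 184 as reported, 303 and 328 with a pseudocount of 0.1 FPKM, 64 and 36 with one of 5 FPKM, 76 and 41 with the floor on the mean level raised to 5 FPKM, and 65 and 49 at 2-fold. Leaving out overlapping genes, which makes the set smaller, gave 138 higher and 118 lower. With a pseudocount of 0.1 FPKM, 1 further NF-kB gene, MAP3K14, was higher. The receptor median was 0.0061 without a filter on low values, which adds genes near 0, and the adaptor median was 0.119 without overlapping genes. Both scalings moved the median of all genes by less than 0.1. No paired analysis was possible because each group holds 1 library, and for the same reason no library could be left out.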

Other observations

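TNFAIP2 has been described as induced by retinoic acid in leukaemia cells, and a list of 14 genes so described, which includes it, was looked at in the same libraries. Of these 6 had values in both libraries and 4 were expressed. RARA, the retinoic acid receptor alpha, had 9.79 FPKM in AG and 4.71 in Control, a ratio of 2.08 (1.83 to 2.37). CYP26B1, which breaks down retinoic acid, had 3.19 FPKM in AG and 1.87 in Control, a ratio of 1.70 (1.38 to 2.11), and its log2 ratio of 0.54 was under 1.5-fold with the pseudocount. TGM2, a transglutaminase, was low, at 0.356 FPKM in AG and 0.0155 in Control on 42 and 2 fragments, a ratio of 22.9 (5.97 to 196). RARRES3 rested on 2 fragments in AG and 5 in Control. RARB and CRABP2 were listed in AG alone, at 0.091 and 0.56 FPKM. TGM2, RARB, CRABP2 and RARRES3 were named after their values were seen.

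Of 12 genes tied to membrane protrusions, the process TNFAIP2 is known for, 4 had values and were expressed, with a median log2 ratio of -0.07. MYO10, a myosin of filopodia, had 29.5 FPKM in AG and 11.3 in Control, a ratio of 2.60 (2.48 to 2.73). EZR, the membrane linker ezrin, had 61.8 FPKM in AG and 79.2 in Control, a ratio of 0.781 (0.745 to 0.819). RALA had 12.2 FPKM in AG and 12.8 in Control, and CDC42 had 18.6 and 19.6. No test between conditions was possible for any of these genes.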
